A study of Mus musculus with 10 samples.

Results

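The odorant receptor (OR) genes numbered Olfr987 to Olfr1318, the large OR cluster of mouse chromosome 2, were followed as a group in the main olfactory epithelium (MOE). Every row of the raw count table named Olfr with a number in that range was taken, with or without a -ps suffix, which gave 247 genes of the 1125 OR genes and of the 24421 rows in the table. No measured value entered this rule, which was set with earlier results of these data known. These genes made up 22.0% of the OR genes counted.

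ORs are G protein-coupled receptors in the cilia of olfactory sensory neurons (OSNs), and each mature OSN transcribes a single OR gene from a single allele. Choice of that gene draws on enhancers bound by the transcription factors Lhx2 and Ebf, which gather from many OR clusters, and a feedback signal then holds the chosen receptor. ORs of this cluster belong to the tetrapod-type class II receptors.

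RNA-seq libraries came from the whole MOE of C57BL/6 mice at postnatal day 14, with 3 samples of wild type (WT), 3 of heterozygous (het) and 4 of homozygous (homo) mice. Homozygous mice lacked TAAR enhancers 1 and 2 on both alleles, heterozygotes carried the double deletion on a single allele, and wild types carried none. The double deletion came from a CRISPR-Cas9 line, in which enhancer 1 was deleted in zygotes of enhancer 2 knockout mice. The enhancer 2 knockout had itself been made in C57BL/6J zygotes. Littermates served as controls, and TAAR enhancers lie within the cluster of trace amine-associated receptor (Taar) genes on another chromosome. The study's reporting summary describes its various lines as of mixed C57BL/6J and 129 background. Comparison of the genotypes asked here how these OR genes of chromosome 2 behaved when the Taar cluster lost its enhancers.

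Total counts per library ranged from 21423861 to 27712948, of which 17281 to 27927 fell on the 247 genes. The 14 olfactory Taar genes summed to 30.9 to 36.7 CPM (counts scaled to the library total) in WT and het libraries and to 0.0934 to 0.221 CPM in homo libraries, in accord with the labels. The mature OSN marker Omp was at 3572 to 4861 CPM. Gfap, Slc17a6, Gad1 and Eomes, listed as markers of olfactory bulb or brain tissue, summed to between 209 and 272 CPM. That they mark only such tissue in MOE libraries was not tested, and the sum was not split by gene. Summed markers of respiratory ciliated cells (Foxj1 and Dynlrb2) were between 171 and 212 CPM. Markers of supporting (sustentacular) cells (Cyp2g1, Cyp1a2 and Sec14l3) summed to 5927 to 6255 CPM in WT, 6437 to 6993 CPM in het and 6170 to 6905 CPM in homo libraries. WT and het did not overlap in that sum, and het-2 was highest in it and in the sum of Gfap, Slc17a6, Gad1 and Eomes. Library het-2 stood apart, with 5454 CPM over all OR genes against 3883 to 4553 CPM in the other 9 libraries, so cluster sums and fold change medians that involve it are given with and without it.

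The cluster fell into 2 blocks on mm10. Block 1 held 210 genes from Olfr987 to Olfr1274-ps at chr2:85330779-90403897 (5.07 Mb), and block 2 held 37 genes from Olfr1275 to Olfr1318 at chr2:111230360-112159157 (0.929 Mb), with a gap of 20.8 Mb between them. In block 1, 74 genes lay on the plus strand and 136 on the minus strand, and in block 2 the numbers were 16 and 21. GENCODE annotated 242 of the genes as protein coding and 5 as polymorphic pseudogenes, which carry an intact reading frame in some strains. Merged exon length ran from 0.918 to 15.6 kb with a median of 2.89 kb, and 220 genes had more than 1 exon, the usual OR structure of noncoding exons before an intronless coding exon. Exons of 10 genes overlapped another annotated gene, so their counts could include reads of that neighbour. Another 14 OR genes with numbers outside the range, such as Olfr1506, lay inside the same bounds and were not counted in the cluster.

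RefSeq promoters (GRCm38.p6, 250 bases before to 50 after the annotated start) were matched by symbol for 201 of the 247 genes, with 203 promoters in all. In 147 of these (72.4%) the annotated start was the ATG itself, against 5.83% over all 32851 promoters, so for most members the window does not cover a mapped transcription start. Median GC content was 32% in the member promoters, 36.7% in promoters of other OR genes and 52.7% over all promoters. The Ebf-type core CCCNNGGG was found on either strand in 2.46% of member promoters, in 3.23% of other OR promoters and in 13.7% of all promoters. The homeodomain-type core TAATTA or TAATGA, the kind of site Lhx2 binds, was found on either strand in 46.3% of member promoters, 39.4% of other OR promoters and 13.9% of all promoters. Among the 56 member promoters whose start was not an ATG, 8.93% held the Ebf-type core and 50% the homeodomain-type core. These counts describe letters in a window, and base composition alone differs between the sets.

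Promoters of 4 members whose annotated start was not an ATG show the range. Olfr1213 had the highest level of the cluster, Olfr1080 the highest level with a homeodomain-type core, Olfr1299 both cores, and Olfr1161 the lowest level of the 50 tested genes with such a promoter. They lie at chr2:88980218-88980517 (minus strand), chr2:86558089-86558388 (minus strand), chr2:111661203-111661502 (plus strand) and chr2:88024452-88024751 (plus strand), and are written 5′ to 3′ with every match to either core in capitals.
Olfr1213: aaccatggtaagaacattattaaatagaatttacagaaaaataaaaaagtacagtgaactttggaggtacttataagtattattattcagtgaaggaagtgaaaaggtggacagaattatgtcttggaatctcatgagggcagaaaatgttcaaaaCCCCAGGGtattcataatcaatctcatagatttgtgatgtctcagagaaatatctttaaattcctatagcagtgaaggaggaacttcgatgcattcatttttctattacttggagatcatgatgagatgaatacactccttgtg
Olfr1080: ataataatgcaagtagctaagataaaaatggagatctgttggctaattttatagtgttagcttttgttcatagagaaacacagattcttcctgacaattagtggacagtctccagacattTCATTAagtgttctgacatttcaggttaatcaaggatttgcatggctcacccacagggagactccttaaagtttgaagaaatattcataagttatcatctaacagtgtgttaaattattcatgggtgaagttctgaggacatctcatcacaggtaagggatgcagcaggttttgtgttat
Olfr1299: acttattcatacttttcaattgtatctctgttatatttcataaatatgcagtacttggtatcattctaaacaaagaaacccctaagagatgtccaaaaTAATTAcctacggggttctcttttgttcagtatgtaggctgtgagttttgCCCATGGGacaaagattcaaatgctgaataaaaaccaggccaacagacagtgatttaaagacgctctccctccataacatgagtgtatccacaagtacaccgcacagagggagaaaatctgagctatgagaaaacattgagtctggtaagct
Olfr1161: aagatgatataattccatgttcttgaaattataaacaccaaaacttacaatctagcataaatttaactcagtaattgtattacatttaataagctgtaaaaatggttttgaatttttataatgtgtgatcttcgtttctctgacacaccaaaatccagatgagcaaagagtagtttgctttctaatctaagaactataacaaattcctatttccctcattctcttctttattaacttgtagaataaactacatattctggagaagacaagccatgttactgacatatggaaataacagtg

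Every level below is the mean over 10 libraries in CPM per kb of merged exon unless named otherwise. Olfr1213 was highest with 8.82, followed by Olfr1112 with 7.90, Olfr1006 with 5.27, Olfr1228 with 5.13 and Olfr1110 with 5.05. Olfr1294, Olfr1080, Olfr1264, Olfr1140 and Olfr1015 completed the 10 highest, between 4.27 and 4.94. All of these encode ORs, and no ligand is given for them here. Among the 1115 OR genes with an exon length, Olfr1213 ranked number 11 and Olfr1112 number 14, so no member was among the 10 highest, while 10 members were among the 50 highest and 17 among the 100 highest. The median over the 235 tested members was 0.939, with quartiles of 0.529 and 1.65, against a median of 0.944 over the other tested OR genes. From the lowest tested member to the highest the level rose 84.6-fold. Of the summed CPM, 50% came from the 50 members of highest CPM.

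Levels varied along both blocks without a gap in expression. In bins of 0.5 Mb of block 1 with at least 14 members, the median level ran from 0.68 to 1.29 CPM per kb, with the lowest medians between 1.5 and 3 Mb from the first gene. Median levels were 0.908 CPM per kb in block 1 and 0.716 in block 2. Block 2 gave 13.2% to 16.2% of the member counts in single libraries, and its share overlapped between the genotypes. At the edges, the first gene Olfr987 was at 2.04 CPM per kb, the last gene of block 1, Olfr1274-ps, at 1.27, the first gene of block 2, Olfr1275, at 1.11, and the last gene, Olfr1318, at 0.585.

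**Figure D1:**
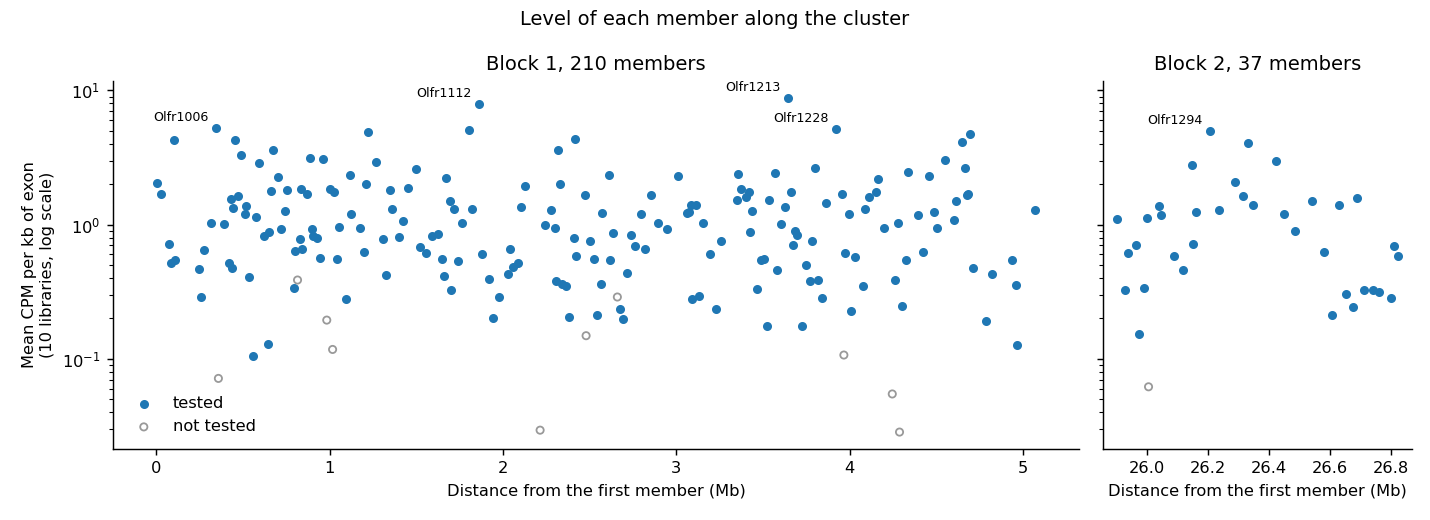
Level of each member, as mean CPM per kb of exon over 10 libraries on a log axis, against distance in Mb from the first member, for block 1 (left) and block 2 (right). Filled points are the 235 tested members and open points the untested ones, without Olfr1061, which had 0 counts; Olfr1213, Olfr1112, Olfr1006 and Olfr1228 top block 1 and Olfr1294 tops block 2.

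Detection of the cluster was nearly complete in every genotype. More than 3 counts were found for 238, 239 and 242 members in WT-1, WT-2 and WT-3, for 238, 237 and 239 in het-1, het-2 and het-3, and for 238, 240, 235 and 240 in homo-1 to homo-4. The WT mean was 239.7 ± 2.08 (SD, n = 3), the het mean 238 ± 1.00 (SD, n = 3) and the homo mean 238.2 ± 2.36 (SD, n = 4), with overlapping ranges, and without het-2 the het mean was 238.5. Over all libraries 229 members passed 3 counts in each library and 245 in at least 1. Thinned to the smallest library total, 235 to 242 members were detected. Only Olfr1061 had 0 counts in all libraries, which allows up to 3 counts in each.

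The 12 members that did not pass the filter on low counts were Olfr1008, Olfr1040, Olfr1053, Olfr1055, Olfr1061, Olfr1128, Olfr1145, Olfr1158, Olfr1230, Olfr1245, Olfr1248 and Olfr1282. Among them Olfr1040 reached at most 19 counts and Olfr1158 at most 15 counts in a library, and Olfr1128 and Olfr1248 summed to 7 counts each over the 10 libraries. Lowest in mean CPM of the tested members were Olfr1188, Olfr1136, Olfr1022, Olfr998 and Olfr1287, all between 0.330 and 0.423 CPM. Olfr1136 shows how thin the data are there, since it had 11, 5, 0 and 13 counts in the 4 homo libraries.

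The order of the members was much the same in every library. Spearman's rho over the 247 genes was 0.903 to 0.952 between libraries of 1 genotype (median 0.922, 12 pairs) and 0.886 to 0.948 between libraries of different genotypes (median 0.930, 33 pairs). Genes are not independent replicates, each library enters several pairs and exon lengths are shared by all, so these values describe the order and carry no test. Of the 20 members with the highest mean level in each genotype, 16 were in the top 20 of all 3 genotypes. The 10 members of highest count in a library took 17.1% to 18.7% of its member counts.

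**Figure D2:**
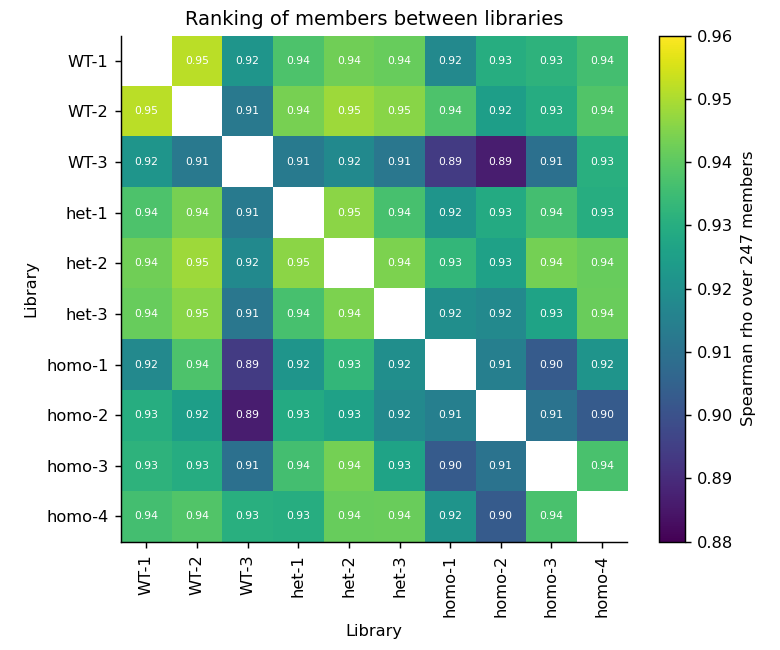
Spearman's rho over the 247 members between every pair of the 10 libraries, by colour and printed in each cell, from CPM per kb. Values run from 0.886 to 0.952, pairs of different genotypes (median 0.930) are no lower than pairs of 1 genotype (median 0.922), and the lowest values involve WT-3.

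Summed over the cluster, level did not separate the genotypes. The total was 795, 979 and 863 CPM in WT-1 to WT-3, 827, 1174 and 899 CPM in het-1 to het-3, and 831, 764, 912 and 796 CPM in homo-1 to homo-4. The WT mean was 879 ± 93.1 CPM (SD, n = 3), the het mean 967 ± 183 CPM (SD, n = 3) and the homo mean 826 ± 63.7 CPM (SD, n = 4), all ranges overlapped, and het-2 was the highest library. The difference of homo minus WT was −53.2 CPM, smaller than the pooled SD of 79.8 CPM, and it was −3.24 CPM without WT-2. The difference of het minus WT was 87.8 CPM with a pooled SD of 145 CPM, and −16.02 CPM without het-2. Each het library was above the WT library of the same number, by 32.4, 196 and 35.5 CPM, and the difference was 33.9 CPM without both WT-2 and het-2, a setting chosen after seeing the data. Its direction thus depended on which libraries were left out. As sums over members chosen with earlier results known, these totals were given no p-value. In whole tissue, fewer OSNs that express a gene and less RNA per OSN cannot be told apart.

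Summed markers of mature OSNs were not highest where the cluster was. Omp, Cnga2, Cnga4, Gng13 and Stoml3, all detected, summed to 6244 to 6921 CPM in WT, 5793 to 7192 CPM in het and 5567 to 6870 CPM in homo libraries. Per 100 of these marker counts, member counts were 11.8, 15.7 and 12.5 in WT, 13.7, 20.3 and 12.5 in het, and 12.9, 13.7, 13.3 and 13.2 in homo libraries. The means of 13.3 ± 2.09 (SD, n = 3), 15.5 ± 4.18 (SD, n = 3) and 13.3 ± 0.330 (SD, n = 4) overlapped in range. Only het-2 passed 20 of these units, and its marker sum was among the lowest and its OR sum the highest. Het minus WT was 2.20 of these units, and −0.187 without het-2.

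As a share of all OR counts, the cluster was lower in every homo library than in every WT library. The share was 20.5%, 21.6% and 20.8% in WT-1 to WT-3, 19.5%, 21.5% and 20.6% in het-1 to het-3, and 20.2%, 18.8%, 20.04% and 19.5% in homo-1 to homo-4. Means were 20.9% ± 0.578 (SD, n = 3), 20.6% ± 0.994 (SD, n = 3) and 19.6% ± 0.610 (SD, n = 4). The difference of homo minus WT was −1.31 percentage points with a pooled SD of 0.594, and the groups did not overlap, though the gap between the highest homo and the lowest WT library (20.2% against 20.5%) was small beside the spread within either group. Het libraries overlapped both groups. Het minus WT was −0.389 points and −0.876 points without het-2, and for libraries of the same number it was −0.914, −0.0532 and −0.20 points. Homo minus WT was −0.991 points without WT-2 and −1.04 points without homo-2, the smallest differences when 1 library was left out, and −1.28 points without the 10 members of highest count. A share has to fall when other OR genes take more counts, and as a score over the members it was given no p-value. For comparison, OR genes on chromosome 7 took 21.1% to 22.7% of OR counts in WT and 22.1% to 23.5% in homo libraries, and those on chromosome 9 took 7.63% to 8.53% and 7.40% to 7.97%, with overlap in both.

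**Figure D3:**
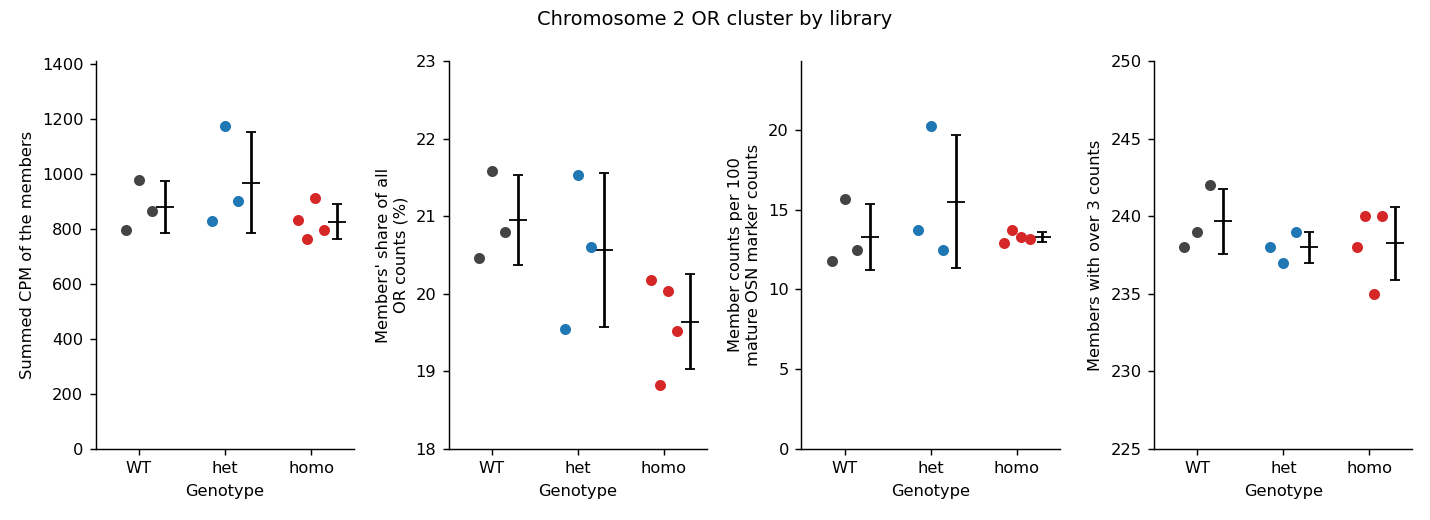
Points are the 10 libraries by genotype, and bars to their right the mean ± SD, for the summed CPM of the members, their share of all OR counts in percent, their counts per 100 mature OSN marker counts, and the number of members with over 3 counts; the axes of the share and of the number detected do not start at 0. Genotypes overlap in every panel except for homo (18.8% to 20.2%) and WT (20.5% to 21.6%) in the share of OR counts.

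Single members were tested with edgeR across all 17197 genes that passed the filter. In homo against WT, 0 of 235 members passed an adjusted p of 0.05 by edgeR, while 0.0698% of all genes tested did, and DESeq2 also called 0. At an unadjusted p under 0.05, 10 members were lower in homo and 0 were higher. This was 4.26% of the members in the lower direction, against 1.06% of all genes tested, and 0% in the higher direction, against 1.35% of all genes tested. Of 808 other OR genes, 8 were lower and 15 higher at that level. The median log2 fold change of the members was −0.10, with 162 of 235 below 0, against 0.01 over the other OR genes and 0.00 over all genes, and it stayed below 0 under each scaling tried. It was −0.05 with 129 of 235 below 0 without WT-2, and −0.06 with 139 of 235 below 0 without homo-4. The count depended on single libraries. Without WT-2, 5 members were lower and 5 higher at an unadjusted p under 0.05 (2.13% in each direction), against 1.27% and 1.68% of all genes tested. Without WT-3, 5 were lower (2.13%) and 0 higher, against 1.52% and 1.62% of all genes. Scaled to total OR counts, 16 (6.81%) were lower and 0 higher, against 3.36% and 1.34% of the 1042 OR genes in that fit.

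The members with the smallest p in this contrast were mostly weakly expressed. Olfr998 had 0.486, 0.547 and 0.951 CPM in WT, 0.351, 0.547 and 0.366 CPM in het and 0.327, 0.133, 0.127 and 0.253 CPM in homo libraries. All homo libraries lay below all WT libraries, on 3 to 7 counts each against 13 to 22, and the log2 fold change was −1.62 ± 0.49 (SE; edgeR quasi-likelihood test, adjusted p = 1.00). Olfr1220 had 1.35, 2.35 and 2.94 CPM in WT, 1.05, 2.06 and 1.71 CPM in het and 0.840, 1.11, 1.35 and 1.19 CPM in homo libraries. Its groups met at about 1.35 CPM, and the log2 fold change was −0.96 ± 0.32 (SE; edgeR, adjusted p = 1.00). Olfr1233 was at 1.64, 2.54 and 1.90 CPM in WT and at 1.12, 1.37, 1.10 and 1.05 CPM in homo libraries, with no overlap and a log2 fold change of −0.80 ± 0.28 (SE; edgeR adjusted p = 1.00).

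Olfr1012 and Olfr1295 were better covered. Olfr1012 had 4.63, 5.40 and 7.44 CPM in WT, 5.04, 5.26 and 5.001 CPM in het and 4.25, 3.58, 4.49 and 3.93 CPM in homo libraries. Every homo library was below every WT and het library, with a log2 fold change from WT of −0.51 ± 0.18 (SE; edgeR adjusted p = 1.00), which was −0.30 without WT-3. Olfr1295, in block 2, had 9.34, 10.2 and 6.22 CPM in WT and 6.49, 6.19, 5.84 and 5.02 CPM in homo libraries, so that WT-3 lay among the homo libraries (log2 fold change −0.54 ± 0.20, SE). Olfr1112, second in level, was at 11.1, 14.3 and 12.1 CPM in WT and 11.9, 7.47, 10.7 and 9.35 CPM in homo libraries, with overlap. None of these members passed the adjusted test.

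In het against WT, edgeR called 0 members at an adjusted p of 0.05, where 0% of all genes tested were called, and DESeq2 called 0 members. At an unadjusted p under 0.05, 11 members (4.68%) were higher in het, against 1.05% of all genes tested, and 0 were lower, against 0.866%. Other OR genes gave 34 higher and 3 lower of 808. The median log2 fold change of members was 0.10, with 154 of 235 above 0, against 0.17 over other OR genes, but it was −0.06 when counts were scaled to total OR counts and also −0.06 without het-2. It was 0.04, 0.16 or 0.22 without WT-1, WT-2 or het-1, and −0.02 without both WT-2 and het-2. Scaled to total OR counts 5 members (2.13%) were higher and 7 (2.98%) lower, against 1.15% and 1.92% of OR genes in that fit. Without het-2, 2 were higher (0.851%) and 5 lower (2.13%), against 0.477% and 0.616% of all genes. Leaving out WT-1, WT-3, WT-2 or het-1 gave 2, 5, 18 or 21 of the 235 members. Of the 235 members, 0.851%, 2.13%, 7.66% and 8.94% were higher in het in these settings, and 0 were lower. All genes gave 0.465%, 1.56%, 2.17% and 1.18% in the higher direction.

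Olfr1275, the first gene of block 2, depended little on het-2, with a log2 fold change from WT of 0.85 without that library. This gene was named for its small p in this contrast, a choice that favours separated groups. It had 2.32, 2.19 and 1.43 CPM in WT, 3.73, 3.78 and 3.46 CPM in het and 2.33, 2.21, 3.34 and 1.98 CPM in homo libraries. All het libraries were above all others, het-2 was level with het-1, and the log2 fold change from WT was 0.88 ± 0.26 (SE; edgeR quasi-likelihood test, adjusted p = 1.00), between 0.69 and 1.01 over all alternatives. Olfr1028 had 2.17, 3.09 and 2.16 CPM in WT, 3.68, 4.42 and 3.21 CPM in het and 2.29, 2.12, 2.58 and 2.60 CPM in homo libraries. Its het libraries also lay above the rest, with a log2 fold change from WT of 0.61 ± 0.23 and from het to homo of −0.65 ± 0.21 (SE; edgeR adjusted p = 1.00 for both). Olfr1028 shares 97.2% of its protein with Olfr1029, so reads of these genes may be split between them.

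Olfr1264 and Olfr1213, both among the strongest members, followed het-2 more closely. Olfr1264 had 18.9, 21.03 and 14.8 CPM in WT, 21.3, 33.7 and 21.3 CPM in het and 14.9, 17.7, 19.6 and 19.1 CPM in homo libraries, a log2 fold change of 0.48 ± 0.18 (SE) in het against WT and of −0.50 ± 0.17 (SE) in homo against het, which were 0.21 and −0.24 without het-2. Olfr1213 had 16.4, 22.5 and 20.7 CPM in WT, 22.2, 32.1 and 23.5 CPM in het and 23.9, 20.1, 24.6 and 24.0 CPM in homo libraries, and in both genes het-2 was far above every other library. Olfr1198 was at 3.29, 7.19 and 4.45 CPM in WT and 6.67, 7.57 and 8.70 CPM in het libraries, with overlap at WT-2. Its log2 fold change in het against WT was 0.62, also 0.62 without het-2, but 0.39 without WT-1 and 0.99 without WT-2. That of Olfr1213 was 0.38, but 0.20 without het-2. Library het-2 was the highest of the 10 in 116 of 246 members with a count (47.2%), in 45.8% of other OR genes and in 17.7% of all genes tested.

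**Figure D4:**
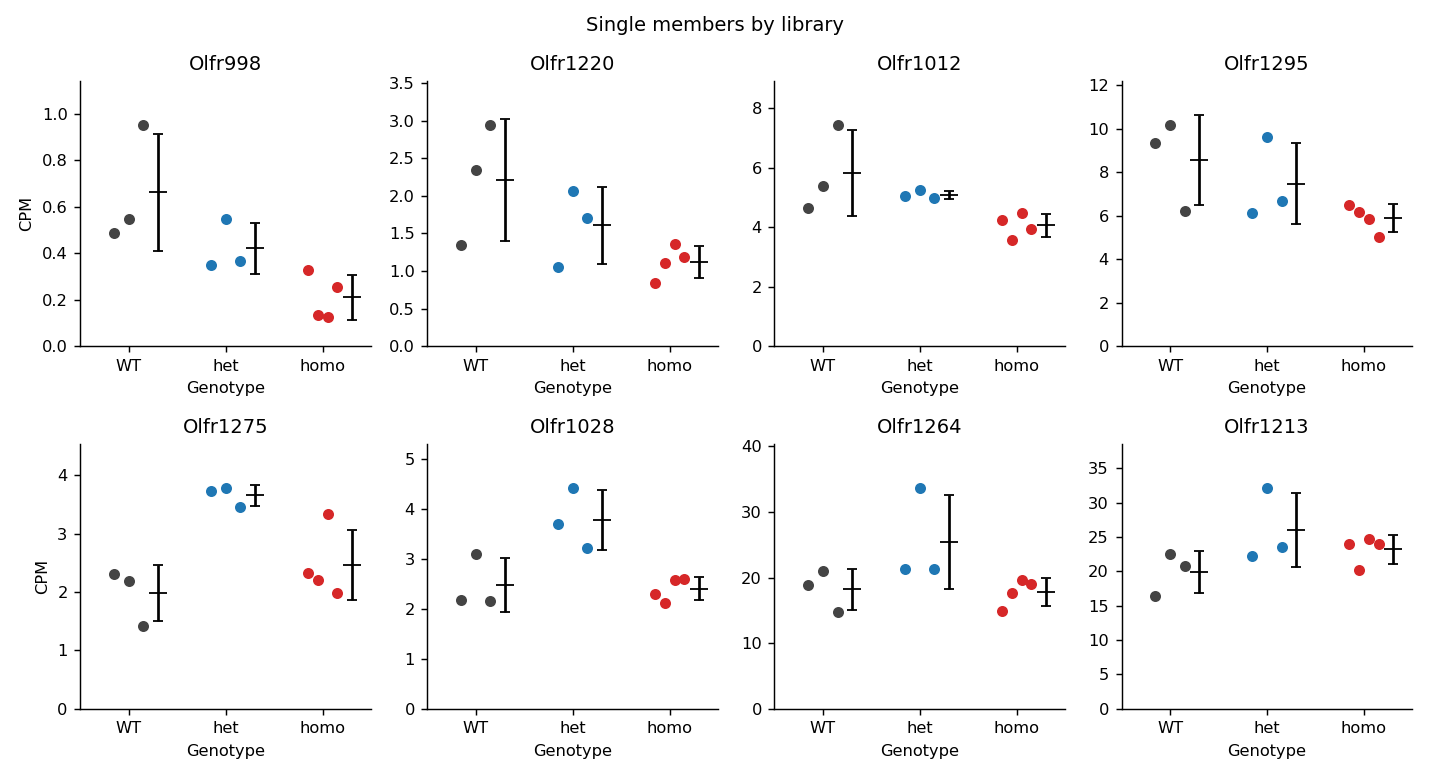
CPM of 8 members in each library by genotype, with the mean ± SD to the right of the points. Top row: Olfr998, Olfr1220, Olfr1012 and Olfr1295, of the 5 members with the smallest p in homo against WT. Bottom row: Olfr1275, Olfr1028, Olfr1264 and Olfr1213, of the 5 with the smallest p in het against WT; het-2 is the far point in Olfr1264 (33.7 CPM) and Olfr1213 (32.1 CPM) but not in Olfr1275.

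In homo against het, edgeR again called 0 members at an adjusted p of 0.05, against 0.0756% of all genes tested, and DESeq2 called 0. At an unadjusted p under 0.05, 15 members (6.38%) were lower in homo, against 0.948% of all genes tested, and 0 were higher, against 1.54%. Other OR genes gave 42 lower and 3 higher of 808. The median log2 fold change of members was −0.21, with 192 of 235 below 0, against −0.16 over other OR genes. Scaled to total OR counts it was −0.05, with 6 members lower (2.55%) and 1 higher (0.426%). The OR genes in that fit gave 1.73% and 1.25%. Without het-2 the median was −0.05, with 2 members lower (0.851%) and 1 higher (0.426%), against 0.488% and 0.884% of all genes. Leaving out het-1, het-3 or homo-3 gave 29 (12.3%), 25 (10.6%) or 27 (11.6%) members in all, each of them lower in homo. All genes gave 1.53%, 2.29% and 1.53% in that direction. The 3 contrasts share libraries, and their members are therefore given side by side only.

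Olfr1215 was the member with the smallest p here. It had 1.97, 2.69 and 2.48 CPM in het, 1.49, 1.19, 1.31 and 1.44 CPM in homo and 1.94, 1.84 and 2.59 CPM in WT libraries. All homo libraries lay below all others, with log2 fold changes of −0.80 ± 0.24 from het and −0.63 ± 0.25 from WT (SE; edgeR adjusted p = 1.00 for both). Olfr1259 was at 6.84, 9.59 and 6.87 CPM in het and 4.76, 5.26, 5.63 and 6.46 CPM in homo libraries, without overlap (log2 fold change −0.48 ± 0.16, SE), but −0.30 without het-2. Olfr1287 had 12, 20 and 20 counts in het and 4, 9, 1 and 8 counts in homo libraries, and Olfr1283 is 95.7% identical to it in protein.

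**Figure D5:**
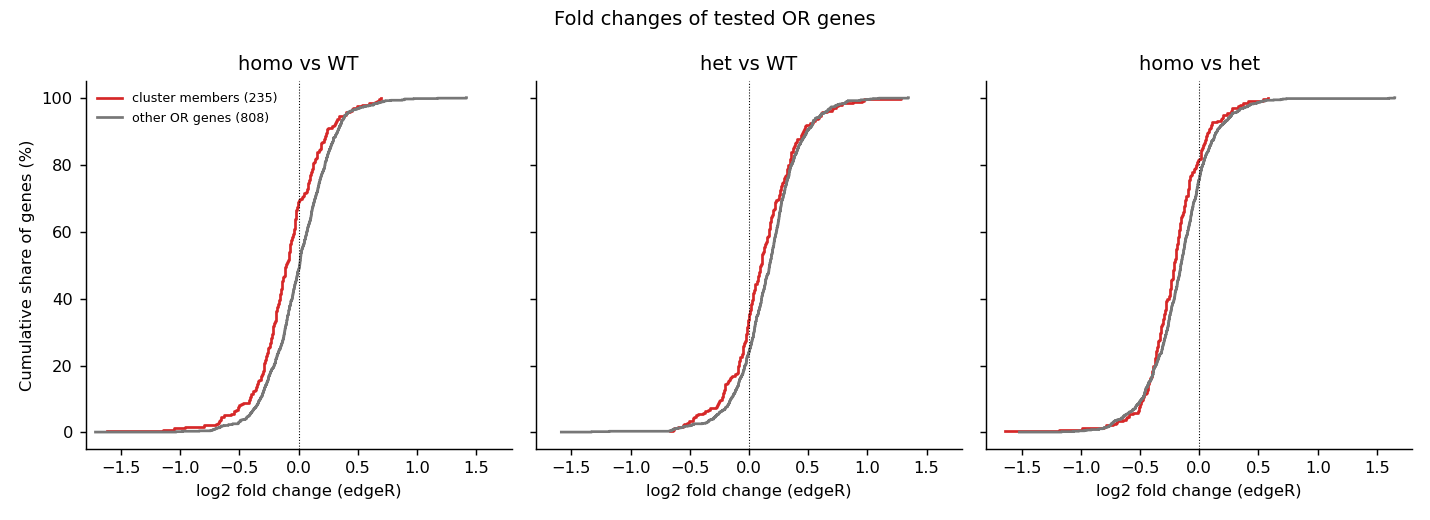
Cumulative share of tested OR genes in percent by edgeR log2 fold change, for homo vs WT, het vs WT and homo vs het, with the 235 cluster members in red and the 808 other OR genes in grey. At the median, though not at the lowest values, the curve of the members lies to the left of the other OR genes. Medians are −0.10 against 0.01, 0.10 against 0.17 and −0.21 against −0.16.

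Precision set what could be seen in single members. The median SE of a log2 fold change was 0.26 in homo against WT, 0.27 in het against WT and 0.26 in homo against het. In the same order, the 95% interval lay within a 2-fold change in either direction for 178, 170 and 179 of the 235 members, so changes past that size were compatible with the data in the remainder. Tagwise biological coefficients of variation had a median of 20.97% in members, 20.6% in other tested OR genes and 12.6% over all genes. Olfr1029 was the most variable with 48.6%, from 1 to 36 counts in a library, followed by Olfr993, Olfr1181, Olfr1273-ps and Olfr1201 with 38.4% to 41.8%. Olfr1181 had 0.560, 1.33 and 0.259 CPM in WT and 0.921, 2.73 and 1.63 CPM in het libraries, and exons of Olfr1273-ps overlap those of Olfr1272.

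Near-identical members were compared within pairs. Proteins of 36 members were at least 95% identical to another OR, in 21 pairs, of which 19 joined 2 members. Olfr1049 and Olfr1051 (98.4% identical) had log2 fold changes in homo against WT of −0.28 ± 0.32 and −0.65 ± 0.36 (SE), Olfr1129 and Olfr1130 (98.1%) of 0.00 ± 0.26 and 0.07 ± 0.22, and Olfr1057 and Olfr1062 (97.8%) of 0.28 ± 0.30 and −0.02 ± 0.40. Within each of these pairs the difference was smaller than the sum of the SEs. That limit is wide and reads may be split within a pair, so it does not show that the 2 genes changed alike. Levels still differed within pairs, as in Olfr1057 and Olfr1062 with 0.558 and 0.277 CPM per kb. Olfr1274-ps is 98.4% identical to Olfr1506, which lies outside the number range.

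Olfr1019 and Olfr1034 were part of the mixed OR probes that the study used to mark OR neurons. Olfr1019, a receptor known to respond to a fox odour compound, had 2.58, 3.40 and 5.06 CPM in WT, 4.21, 5.09 and 3.50 CPM in het and 2.71, 3.05, 3.85 and 3.18 CPM in homo libraries. Olfr1034 had 4.04, 3.75 and 5.58 CPM in WT, 3.73, 8.12 and 3.33 CPM in het and 3.87, 2.74, 5.08 and 4.80 CPM in homo libraries. Groups overlapped in both, with log2 fold changes in homo against WT of −0.19 ± 0.24 and −0.10 ± 0.29 (SE; edgeR adjusted p = 1.00 for both). Olfr1034 is 97.4% identical to Olfr1036, whose log2 fold change in homo against het was −0.59 ± 0.21 (SE; edgeR adjusted p = 1.00).

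Genes that act in OR choice and transport were set beside the cluster. The list held the enhancer-binding factors Lhx2, Ebf1 to Ebf4 and Emx2, as well as Ldb1, whose recruitment the paper ties to Lhx2. It also held the feedback genes Kdm1a, Atf5, Eif2ak3 and Adcy3 and the nuclear architecture genes Lbr and Cbx5. The receptor transporters Rtp1, Rtp2 and Reep1 and the olfactory G protein gene Gnal completed it. All 17 of 17 were tested, and 0 passed an adjusted or an unadjusted p of 0.05 by edgeR in any contrast. Of all genes tested, 2.41% had an unadjusted p under 0.05 in homo against WT. The share was 1.92% in het against WT and 2.48% in homo against het. At such low shares, 0 of 17 does not show that the listed genes were unchanged. Their log2 fold changes ran from −0.16 to 0.13 in homo against WT, from −0.16 to 0.15 in het against WT and from −0.18 to 0.05 in homo against het. Lhx2 averaged 323, 311 and 310 CPM and Rtp1 695, 700 and 674 CPM in WT, het and homo libraries.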

How the data were processed

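RNA was taken by the authors from the whole MOE of mice at postnatal day 14, made into directional poly(A)-selected libraries, trimmed with Trimmomatic 0.36, aligned to mm10 with HISAT2 2.1.0 and counted per gene with featureCounts (Subread 1.6.2), per the labels and the study's methods. These raw counts, as deposited, were the only values analysed. How reads with more than 1 alignment, strand and gene annotation were handled in counting is not given in the sources used here, so members with near-identical copies or overlapping exons are uncertain as single genes. A second deposited table, normalized with DESeq2, was not used here.

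Groups and replicate numbers were taken from sample titles. Counts were tested in R 4.3.3 with edgeR 4.0.16 (filterByExpr with minimum count 10 and minimum total count 15, TMM, robust quasi-likelihood F test, two-sided, genotype as the only term, all 10 libraries), with Benjamini-Hochberg adjustment over 17197 genes, and alternatively with DESeq2 1.42.0. The code was tested on simulated data. CPM used library totals, and levels between genes were divided by merged exon length of GENCODE release M21 on mm10. Members matched 245 GENCODE symbols, and 2 (Olfr1182 and Olfr1213) matched through RefSeq synonyms. Protein identity was computed from the longest reading frame of the annotated transcripts. A count of 0 allows 3 counts, which covers counting error only, since reads lacked molecular identifiers. Replicates were littermate mice per the study's text, while the labels tie no number to a litter or batch.

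Same-numbered WT and het libraries deviated together (correlations over all genes 0.326, 0.285 and 0.235), which met the rule set for pairing, so the fit with a replicate block is given beside the one without. Over the members alone these correlations were −0.0475, −0.104 and −0.126. For homo and WT these were −0.0995, −0.0122 and −0.0734, and for homo and het −0.148, 0.159 and 0.0676. No libraries of a genotype were as alike as sampling noise allows (chi-square divided by its degrees of freedom, 14.5 to 49.3).

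The members, gene lists and tests were chosen with earlier results of these data known. Named members were the 10 of highest CPM per kb, the 5 of smallest p per contrast, the 5 of highest variation, the 5 of lowest mean CPM tested, the edges of each block, 5 near-identical pairs, and Olfr1019 and Olfr1034. The untested members and Olfr1299, Olfr1161, Olfr1283 and Olfr1272 were named after their values were seen. Alternatives were other scalings, no filter, DESeq2, a replicate block, other detection limits and leaving out each library. Leaving out WT-2 and het-2 together was added after seeing the data.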

Additional observations from a re-analysis of the deposited data

Results flagged for a closer look

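In the 4 homo libraries Olfr1213 was at 20.1 CPM in homo-2 and at 23.9, 24.6 and 24.0 CPM in the others, so that homo-2 lay farther from the rest than Dixon's critical value for 4 samples allows. Of 46 values checked in this way 1 was flagged, and chance flags about 1 in 20 such groups.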

How the results depend on the processing

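Over 39 results and 525 alternative values, 509 kept direction and side of the threshold or moved by less than the replicate spread, 16 moved further and 0 reversed a call. The count of members called at an adjusted p of 0.05 was 0 in each contrast under all 17 alternatives, with smallest adjusted p-values of 0.503 (homo and WT), 0.808 (het and WT) and 0.891 (homo and het). With the replicate block it was also 0 in each contrast. At an unadjusted p under 0.05 the block gave 12 (5.11%), 14 (5.96%) and 11 (4.68%) members in the same order of contrasts. All genes gave 5.11%, 4.07% and 4.16%. In homo against WT, 11 members (4.68%) were lower and 1 (0.426%) higher, where all genes gave 2.71% and 2.4%. In het against WT, 14 (5.96%) were higher and 0 lower, where all genes gave 2.04% in each direction. In homo against het, 11 (4.68%) were lower and 0 higher, where all genes gave 1.66% and 2.5%. The pairing changed no call. The number of members detected differed between het and WT by −1.67 with more than 3 counts, by 1.33 with at least 1 count and by 0.333 with at least 10 counts, and between homo and het by 0.25 and, with at least 10 counts, by −2.58. The other 13 values that moved were counts of members at an unadjusted p under 0.05, from 5 to 16 in homo against WT, from 2 to 21 in het against WT and from 3 to 29 in homo against het. Low counts limit single members most, since the mean count per library had a median of 64.2 over members.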
